A study of Drosophila melanogaster with 120 samples.

Results

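Heat shock proteins and other chaperones bind unfolded proteins and help them to fold, to be moved or to be degraded. Small heat shock proteins hold unfolding proteins without using ATP, members of the Hsp70 family bind and release them in cycles driven by ATP, and J proteins such as DnaJ-1 bring clients to Hsp70 and start its ATP hydrolysis. In Drosophila melanogaster some of these genes are known for their induction by heat, while others, the cognates named Hsc, are expressed at all times, and Hsp26 and Hsp27 are also known to be transcribed in the nurse cells of the ovary without heat. The set described here has 10 genes, namely Hsp22, Hsp23, Hsp26, Hsp27, Hsp67Bc, Hsp68, Hsp83, Hsc70-3, Hsc70-4 and DnaJ-1, and a gene was measured where a probe set of the array is annotated to it alone. That held for 6 of the 10, with 1 probe set each, of 18,769 probe sets and of 11,981 genes with a probe set of their own. Hsp26, Hsp27 and DnaJ-1 lie on chromosome arm 3L, Hsp68 and Hsc70-4 on 3R and Hsc70-3 on X (RefSeq annotation of Release 6). Hsp22 is annotated only on 2 probe sets that also list CG4456, and those were not used. Hsp23, Hsp67Bc and Hsp83 are in no annotation row and were not analysed here.

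The samples were whole adult males and whole adult females of 15 hemiclonal lines from LHM, a large outbred laboratory population. All flies of a line carry the same nearly complete haploid genome of the line, without the fourth chromosome, combined with genomes that vary from fly to fly. Males had mothers of the double-X stock [C(1)DX, y, f] and thus their only X chromosome from the line, while females also had an X of the population. The flies were 4 days adult when frozen on Day 14, after 24 hours with LHM tester flies of the opposite sex and some 20 hours without them, and each of the 120 arrays was hybridised with RNA of a separate group of 6 flies, 4 groups for each line in each sex. The lines were picked in the study for their fitness in the 2 sexes, but the labels give only line codes (H07, P13 and so on), and lines are therefore compared by code. All values are RMA values on the log2 scale, on which a difference of 1 is a factor of 2. Probe sets differ in how strongly they bind, so that levels are compared between samples and not between genes.

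Markers fitted the labelled sexes. The mean of 8 ovary and egg genes was 4.82 to 5.74 in male arrays and 10.83 to 11.29 in female arrays, and the mean of 5 accessory gland genes, which encode proteins of the seminal fluid, was 13.41 to 13.94 in male arrays and 3.32 to 4.10 in female arrays. The array medians were 6.28 to 6.45 in males and 5.69 to 5.82 in females. Replicate arrays of a line and sex correlated at 0.988 to 0.997, and 103 of the 120 arrays were nearest to another replicate of their group while 17 were nearest to another group. In whole flies a difference in the RNA of a gene per cell and a difference in the amount of a tissue cannot be told apart.

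The comparison of the sexes asks which chaperone genes differ in expression between adult males and females. Hsp26 and Hsp27, the small heat shock genes, were far lower in males, Hsp68 was higher in males, and Hsc70-3, Hsc70-4 and DnaJ-1 were slightly lower in males on the deposited scale. In a mixed model that took sex as fixed and the terms of line as random, 1 of the 6 genes was called higher in males, against 30.5% of all probe sets, and 5 of the 6 were called higher in females, against 60.9% of all probe sets (F test of sex on 14 degrees of freedom, false discovery rate 0.001 by Benjamini and Hochberg over all probe sets). The members' split is thus near that of the whole array. Every one of the 6 differences had the same direction in all 15 lines. The share of all probe sets for which this holds was not computed, but 91.4% of them were called for sex. The split depended on how arrays were scaled. Centring each array on its median lowered every male minus female difference by 0.64 and left 1 gene called higher in males and 5 in females, whereas centring on the median of 47 ribosomal protein probe sets raised every difference by 0.75 and gave 3 higher in males and 2 in females. Over all probe sets, median centring called 21.2% higher in males and 73.6% in females, and ribosomal centring 72.3% and 21.4%.

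Hsp26 encodes a small heat shock protein of the cytosol. The 60 male arrays lay between 9.85 and 11.11, with a median of 10.33. The lowest of the 60 female arrays was 1.89 above the highest male array, the female median was 13.61 and the highest female array was at 13.86. The highest male array, replicate 4 of P48, was 0.63 above the mean of its line, and the sexes were far apart even with it. The mean of the 15 line means was 10.33 ± 0.13 in males and 13.57 ± 0.11 in females (SD over 15 lines), and the male minus female difference was -3.24 (SE 0.04, adjusted p = 1.33e-18, F test in the mixed model), which is 9.47-fold lower in males. A lower difference was found for 2.87% of all probe sets. The difference was -3.88 with arrays centred on their median and -2.49 with centring on ribosomal proteins.

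Hsp27, which lies a few genes away from Hsp26 in the heat shock cluster of 3L, gave the same picture. Male arrays lay between 8.92 and 10.20, with a median of 9.87, and female arrays between 11.53 and 13.32, with a median of 12.96. The sexes were 1.33 apart at their nearest arrays. The means over lines were 9.81 ± 0.29 in males and 12.88 ± 0.24 in females (SD over 15 lines), with a difference of -3.07 (SE 0.06, adjusted p = 1.42e-16, F test in the mixed model), or 8.40-fold lower in males. Single lines differed between the sexes by -3.51 to -2.74.

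Hsp68, a heat-inducible member of the Hsp70 family, was the only measured member that was higher in males on the deposited scale, and with centring on the array median as well. Male arrays lay between 7.94 and 8.98, with a median of 8.37, and female arrays between 6.15 and 7.02, with a median of 6.57. All 60 male arrays were above all 60 female arrays. The means were 8.40 ± 0.17 in males and 6.58 ± 0.11 in females (SD over 15 lines), a difference of 1.82 (SE 0.05, adjusted p = 3.82e-15, F test in the mixed model) or 3.52-fold. The difference was 1.18 with arrays centred on their median and 2.57 with centring on ribosomal proteins.

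The 3 remaining genes had small differences, whose direction turned with centring on ribosomal proteins. Hsc70-4, the major Hsp70 cognate of the cytosol and a factor in the uncoating of clathrin vesicles, had values of 13.01 to 13.44 in males and 13.61 to 14.01 in females, with medians of 13.25 in males and 13.82 in females. The sexes did not overlap, and the difference was -0.57 (SE 0.02, adjusted p = 6.14e-15, F test in the mixed model), but 0.19 (adjusted p = 6.5e-06) with centring on ribosomal proteins. DnaJ-1 had values of 10.68 to 11.27 in males and 11.23 to 11.86 in females, with medians of 10.97 in males and 11.67 in females. Here 1 female array, replicate 2 of line P22, reached into the range of the males, and the next lowest female array stood at 11.42. The difference was -0.67 (SE 0.02, adjusted p = 6.4e-14, F test in the mixed model), and 0.08 (adjusted p = 0.0184, not called) with centring on ribosomal proteins. Hsc70-3, the BiP of the endoplasmic reticulum lumen, had values of 11.78 to 12.38 in males and 12.16 to 12.56 in females, with medians of 12.11 in males and 12.31 in females. The sexes overlapped, with 18 male arrays at or above the lowest female array and 43 female arrays at or below the highest male array. Its difference was -0.24 (SE 0.02, adjusted p = 1.83e-08, F test in the mixed model), and 0.51 (adjusted p = 1.04e-11) with centring on ribosomal proteins.

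**Figure D1:**
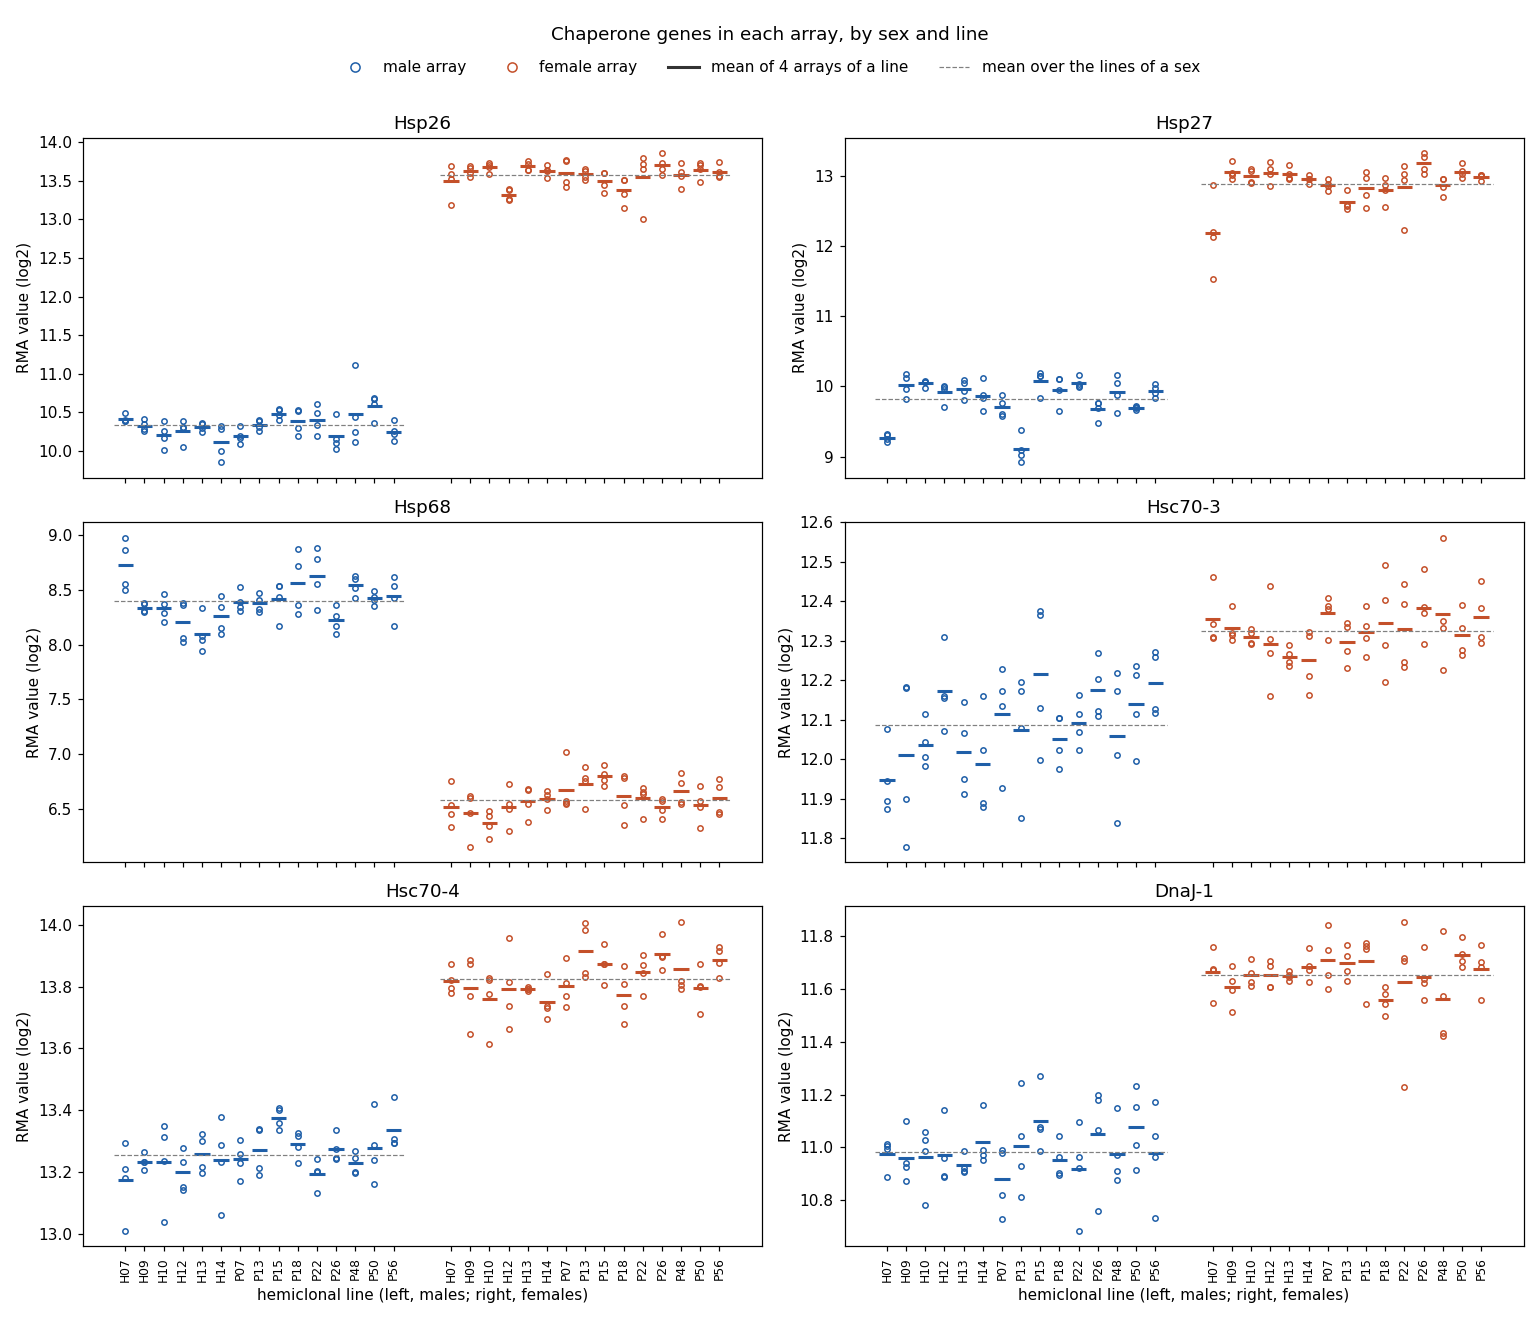
RMA values (log2, vertical axes) of the 6 measured chaperone genes in every array, by hemiclonal line, with males on the left and females on the right of each panel. Circles are arrays, thick bars are means of the 4 arrays of a line and dashed lines are means over the 15 lines of a sex. Vertical scales differ between panels and do not start at 0. Hsp26 and Hsp27 are lower and Hsp68 is higher in males without overlap, and lines P13 and H07 stand below the other lines in Hsp27 of males.

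**Figure D2:**
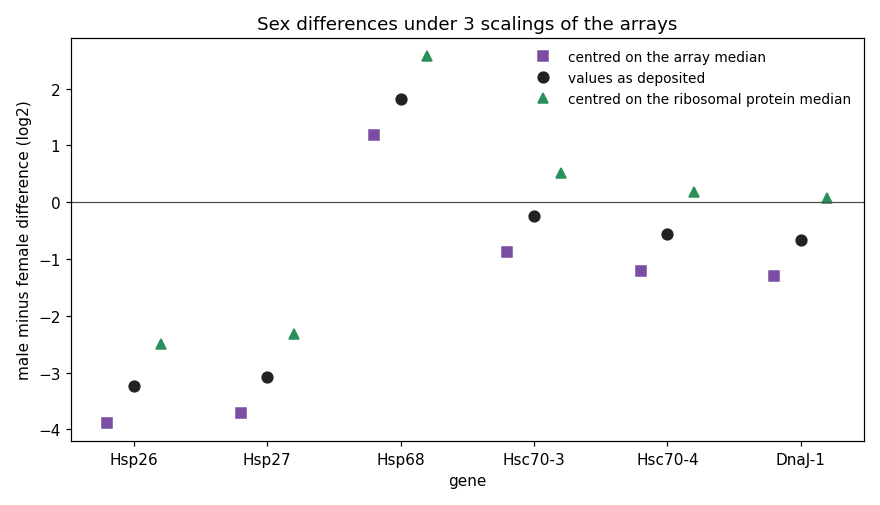
Male minus female differences (log2, vertical axis) of the 6 genes under 3 scalings of the arrays, namely centred on the array median, as deposited, and centred on the median of 47 ribosomal protein probe sets. Hsp26 and Hsp27 stay below 0 and Hsp68 stays above 0 under the 3 scalings, while Hsc70-3, Hsc70-4 and DnaJ-1 lie below 0 under 2 of them and above 0 with centring on ribosomal proteins.

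The other chaperone genes of the array were counted in 7 lists, which hold 72 genes of which 59 have a probe set of their own. Of these 59, 17 were called higher in males and 38 in females, against 30.5% and 60.9% of all probe sets. This split is near that of the whole array. The median difference was -0.71, against -0.27 over all probe sets. Median centring made the split 13 and 45 (of all probe sets, 21.2% and 73.6%), and ribosomal centring made it 29 and 25 (of all probe sets, 72.3% and 21.4%). The same shares of all probe sets stand against the counts of each list below. The other small heat shock genes did not share the direction of Hsp26 and Hsp27. All 4 measured were called higher in males on the deposited scale, and CG13133 was not called with centring on the array median. CG7409 averaged 12.83 in males and 10.19 in females (difference 2.64), and CG4461, which lies next to Hsp26 on 3L, averaged 11.89 in males and 9.65 in females (difference 2.24). The difference of l(2)efl, which encodes a small heat shock protein outside the 3L cluster, was 1.41.

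Among 8 other genes of the Hsp70 family and its regulators 3 were called higher in males and 5 in females. The cognate Hsc70-2 averaged 10.07 in males and 4.41 in females (difference 5.66), the female level being under 5 and taken as dim, and Hsc70-1 had a difference of 2.37. Hsf, the transcription factor that switches on heat shock genes, was lower in males, with 9.23 in males and 11.35 in females (difference -2.11), while starvin (stv), a BAG-domain partner of Hsp70, was higher by 1.70. With centring on ribosomal proteins this list split into 5 higher in males and 3 higher in females.

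Hsp90 itself could not be read, since Hsp83 was not analysed here, but its co-chaperones were measured. Of 11 Hsp90 paralogues and co-chaperones 2 were called higher in males and 9 in females, which ribosomal centring changed to 3 and 6 and median centring to 0 and 11. Stip1, which bridges Hsp70 and Hsp90, averaged 10.09 in males and 12.14 in females (difference -2.05). The differences of Dpit47, Fkbp59 and spag, which are co-chaperones of the same machinery, were -1.82, -1.66 and -1.63.

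The chaperonins of cytosol and mitochondrion were counted apart. All 14 genes of the cytosolic CCT chaperonin, which folds actin and tubulin, and of prefoldin, which hands it clients, were called higher in females, with a median difference of -2.39, and 12 of them were still called so and 1 was called higher in males with centring on ribosomal proteins. CCT2 averaged 10.25 in males and 13.08 in females, and CCT1 8.93 in males and 11.77 in females, with a difference of -2.83 each, against -2.58 for CCT4 and -2.56 for CCT3. Of the 5 mitochondrial chaperonin genes 3 were called higher in males and 2 in females, in the same split under each of the 3 scalings. Hsp60C averaged 11.52 in males and 4.41 in females (difference 7.11), Hsp60B 10.39 in males and 4.72 in females (difference 5.66) and Hsp60D 9.08 in males and 4.69 in females (difference 4.38), though these 3 female means are dim, so that the differences need not be exact. The direction of the CCT genes was shared by Hsp60A, the general chaperonin of the mitochondrion, with 11.17 in males and 12.67 in females (difference -1.50), and by CG11267, its small co-chaperonin, with 10.88 in males and 12.77 in females (difference -1.90).

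J proteins and folding factors of the endoplasmic reticulum showed no common direction on the deposited scale. Of 13 other J protein genes 4 were called higher in males and 6 in females on the deposited scale, with wus, a J protein known from the airways, at 5.86 in males and 9.21 in females (difference -3.35), against differences of 2.75 for CG2887, which was dim in females at 4.18, 2.15 for jdp and 1.56 for CG5001. Median centring turned the counts of J proteins into 4 and 9, and ribosomal centring into 9 and 2. Of 5 genes of the endoplasmic reticulum 2 were called higher in males and 2 in females, with differences from -0.43 for ERp60 to 0.19 for Gp93. Median centring turned those counts into 0 and 5, and ribosomal centring into 5 and 0, with 1 of the 5, Pdi, dim in both sexes at 3.29 in males and 3.26 in females.

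**Figure D3:**
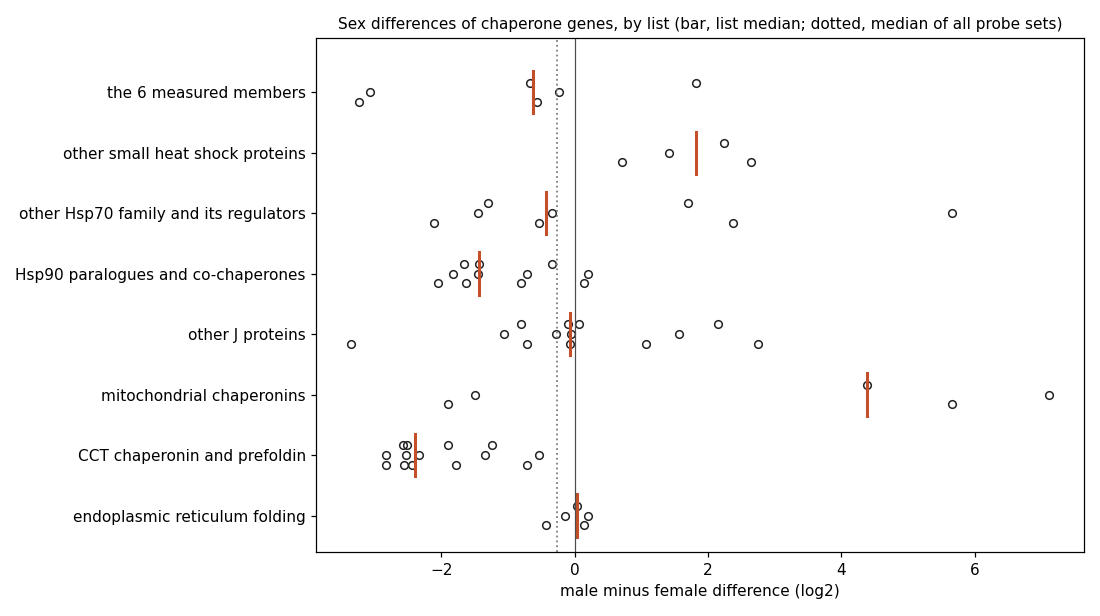
Male minus female differences (log2, horizontal axis) on the deposited scale for the 6 measured members and for 7 lists of other chaperone genes, with 1 circle for each gene, a bar at each list's median and a dotted line at the median of all probe sets, -0.27. All 14 CCT and prefoldin genes lie below 0, 2 of which lie above 0 with centring on ribosomal proteins. The 4 other small heat shock genes lie above 0, and they stay above 0 with either centring.

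The comparison of lines asks whether the genome of the line affects expression. Within the sexes, 2 of the 6 genes, Hsp27 and Hsp68, were called for line in males, against 27.3% of all probe sets, and 1 gene, Hsp27, was called for line in females, against 8.36% of all probe sets (restricted likelihood ratio test in each sex, false discovery rate 0.001). No member was called for line over both sexes, where 0.282% of all probe sets were called, or for sex by line, where 9.87% were called. The smallest unadjusted p over both sexes was 0.00645, for Hsp27, and the unadjusted p for sex by line was 0.000329 for Hsp27, 0.00482 for Hsp26 and 0.00662 for Hsp68. With the moderated test of limma 2 members, Hsp27 and Hsp68, were called for line over both sexes, against 27.4% of all probe sets, and 0 for sex by line.

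Hsp27 varied most between lines. Line accounted for 78.1% of its variance in males (adjusted p = 4.98e-11) and 50% in females (adjusted p = 0.000303, restricted likelihood ratio tests), against medians of 21.3% in males and 8.13% in females over all probe sets, and 2.49% of probe sets had a larger share in males. In males the line means ran from 9.11 in P13 to 10.08 in P15, a range of 1.96-fold. The arrays of P13 males were at 9.10, 8.92, 9.02 and 9.39, and those of H07 males at 9.21, 9.30, 9.32 and 9.25. All 8 lay below every one of the 52 arrays of the other 13 lines, of which the lowest was at 9.48, in P26. The step between H07 and P26, of 0.40, was the only place in the order of male lines where the arrays of neighbouring lines did not overlap. The 13 other lines lay between 9.67 and 10.08, each overlapping its neighbours.

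In females the same lines were lowest, but with more spread. H07 females were at 12.13, 12.87, 11.53 and 12.20, with a mean of 12.18 ± 0.55 (SD, n = 4), and P13 females at 12.53, 12.59, 12.80 and 12.57, with a mean of 12.62 ± 0.12. The other 13 lines had means of 12.80 to 13.17, and all neighbouring lines overlapped. Only 3 of the 8 arrays of H07 and P13 lay below all arrays of the other lines. The female call was lost without line H07 (33.5% of variance, adjusted p = 0.0263), P13 (47.7%, adjusted p = 0.00106) or P26 (47.2%, adjusted p = 0.0012), without replicate 1, 3 or 4 of every line (adjusted p from 0.0202 to 0.0576), and with centring on ribosomal proteins (44.0%, adjusted p = 0.00179). Of all probe sets, 3.51% to 4.82% were called for line in females with a replicate left out, against 8.36% with all arrays. The male call of Hsp27 held in all alternatives, with 67.6% to 84.1% of the variance.

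Across the 15 lines the means of Hsp27 in the sexes had r = 0.61 (permutation p = 0.0291, adjusted over 6 genes p = 0.175) and rho = 0.03 (permutation p = 0.923, adjusted p = 0.923). Without P13 and H07, the lines farthest from the male median, r was -0.43 over 13 lines, so that the positive r rests on those lines. For the other 5 genes r between the sexes ran from -0.24 for Hsp26 to 0.38 for Hsc70-4, with adjusted permutation p of at least 0.34.

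The place of Hsp27 in the genome was used to look at its neighbours. The 10 nearest genes with a probe set of their own were taken, 5 on each side in the order of Release 6. Of these, 4 were called for line in males, against 27.3% of all probe sets. In females 1, Fdx1, was called, against 8.36%. In none of the 10 were P13 and H07 both the lowest 2 lines of males. However, 1 of these 2 lines was among the lowest 2 in CG4461, Fdx1, mRRF1, Cpr67B, CG4022 and Cpsf5, and neither was in the others. How often this holds over all probe sets was not computed. Over line means of males, the lowest r of a neighbour with Hsp27 was -0.36 and the highest 0.55, for Fdx1. Among females the lowest r was -0.31, for Cpr67B, and the highest 0.72, for CG4022. These r were not tested. Hsp26 is among these neighbours, and its male means in P13 (10.34) and H07 (10.42) were both above the mean over the lines.

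Hsp68 was called for line in males and not in females. Line accounted for 43.7% of its variance in males (adjusted p = 0.000681) and 17.1% in females (adjusted p = 0.224, restricted likelihood ratio tests), and the difference between the sexes in this share was not tested other than through the sex by line term (adjusted p = 0.0301). Male line means ran from 8.10 in H13 to 8.72 in H07, or 1.54-fold. The arrays of H07 males were at 8.50, 8.98, 8.87 and 8.55, and those of H13 males at 8.04, 8.34, 8.08 and 7.94, and no array of H07 reached down to H13. All neighbouring lines overlapped in both sexes. The call in males was lost without line H07 (37.2%, adjusted p = 0.00543), H13 (37.1%, 0.00498), P26 (42.0%, 0.00164), P48 (42.6%, 0.00144), H12 (43.3%, 0.00123), H09 (43.6%, 0.00112) or P50 (44.0%, 0.00102), and without replicate 1, 3 or 4 of every line (adjusted p from 0.00817 to 0.0443). Of all probe sets, 12.9% to 17% were called for line in males with a replicate left out, against 27.3% with all arrays.

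The 4 other genes were not called for line in either sex. Hsp26 had 23.3% of its variance among lines in males (adjusted p = 0.0535) and 22.1% in females (adjusted p = 0.126), and its line means spanned 0.47 in males and 0.39 in females. The cognates and DnaJ-1 spanned less. The line means of Hsc70-4 spanned 0.20 in males and 0.17 in females, those of Hsc70-3 spanned 0.27 in males and 0.13 in females, and those of DnaJ-1 spanned 0.22 in males and 0.17 in females. For DnaJ-1 the variance among lines was estimated as 0% in each sex, but in males the estimate moved with the setting. Male DnaJ-1 was above the mean of its line in replicate 3 and below it in replicate 2 in 15 of 15 lines, by 0.14 and -0.13 on average, and 2.49% of all probe sets had a replicate number on 1 side in every male line. With the replicate block the share among male lines was 28.7% (adjusted p = 0.0201), and with centring on ribosomal proteins it was 25.7% (adjusted p = 0.0214), neither of them called. Centring on ribosomal proteins also gave 39.4% for Hsc70-4 in males (adjusted p = 0.00123) and, for Hsc70-3, 3.35% in males (adjusted p = 0.389) and 18.6% in females (adjusted p = 0.187), none of them called. Hsc70-4 was also among the most even genes between replicates, with a standard deviation within lines of 0.08 in each sex, which was exceeded by 96.2% of probe sets in males and by 94.5% in females.

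**Figure D4:**
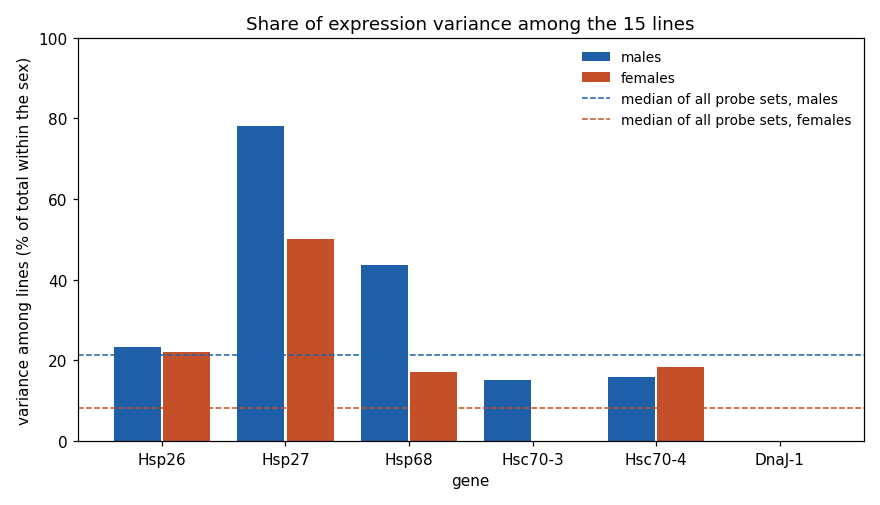
Share of the variance of each gene that lies among the 15 lines (% of the total within the sex, vertical axis), for males and females, with dashed lines at the median of all probe sets in each sex. Hsp27 reaches 78.1% in males and 50% in females, and Hsp68 reaches 43.7% in males and 17.1% in females. DnaJ-1 in both sexes and Hsc70-3 in females are at 0% as deposited, whereas DnaJ-1 in males is at 28.7% with the replicate block and Hsc70-3 in females at 18.6% with centring on ribosomal proteins.

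Line means of different members gave no correlation that passed, though some r were larger without the 2 lines farthest from the median. Of 30 correlations between members over 15 line means, 15 in each sex, none passed after adjustment (smallest adjusted permutation p = 0.378 for r and 0.145 for rho). The largest r was between the cognates Hsc70-3 and Hsc70-4 in males, at 0.61 (permutation p = 0.0142, adjusted p = 0.378, rho = 0.54 with adjusted p = 0.318), and it was 0.30 without the 2 lines farthest from the median. Hsp26 and Hsp27 had r = -0.05 in males (permutation p = 0.857, rho = 0.14) and r = 0.34 in females (permutation p = 0.202, rho = 0.66 with adjusted p = 0.145). Without the 2 farthest lines this r was 0.04 in males and 0.77 in females. In females Hsp27 and Hsp68 had r = -0.28 (permutation p = 0.305, rho = -0.65 with adjusted p = 0.145), and -0.68 without the 2 farthest lines.

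Replicate arrays of the same line gave another pattern in females. After the mean of each line and sex was taken off, Hsp26 and Hsp27 deviated together over the 60 female arrays (r = 0.79, rho = 0.71, each with adjusted p = 0.0003 from permutations within lines and unadjusted p = 1e-05, the smallest these can give), and r was 0.67 without the 2 arrays farthest from the median. DnaJ-1 deviated with Hsp26 (r = 0.72, adjusted permutation p = 0.0012, rho = 0.60 with adjusted p = 0.00135, and 0.57 without the 2 farthest arrays) and with Hsp27 (r = 0.51, adjusted permutation p = 0.0327, rho = 0.41 with adjusted p = 0.0359, and 0.58 without the 2 farthest arrays). In the 60 male arrays the r of these pairs were 0.31 for Hsp26 and Hsp27, 0.15 for Hsp26 and DnaJ-1 and 0.06 for Hsp27 and DnaJ-1, with adjusted permutation p of 0.204, 0.53 and 0.831. The difference between the sexes in these correlations was not tested. Other pairs passed in males. Hsp27 and Hsp68 deviated together (r = 0.37, adjusted permutation p = 0.0327, rho = 0.42 with adjusted p = 0.0218), and Hsc70-3 went against Hsp26 (r = -0.43, adjusted permutation p = 0.0109, rho = -0.40 with adjusted p = 0.0227), with r of 0.36 and -0.31 without the 2 farthest arrays. Hsc70-3 also had r = -0.42 with DnaJ-1 in males (adjusted permutation p = 0.0109), but 0.01 once the means of the replicate numbers were taken off, and male Hsc70-3 was below its line mean in replicate 3 in 14 of 15 lines, where DnaJ-1 was above it. The permutations within lines take arrays of a line as exchangeable, which those numbers are not for male DnaJ-1. With the number means taken off, r in males was 0.36 for Hsp27 and Hsp68 and -0.43 for Hsp26 and Hsc70-3, and r in females was 0.86 for Hsp26 and Hsp27, 0.77 for Hsp26 and DnaJ-1 and 0.63 for Hsp27 and DnaJ-1. In females Hsc70-3 also went against Hsp27 (r = -0.44, adjusted permutation p = 0.0109), though the rank correlation did not pass (rho = -0.34 with adjusted p = 0.0696), and r was -0.46 without the 2 farthest arrays and -0.40 with the number means taken off.

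Single arrays took part in this. Replicate 2 of P22 females deviated from its line mean by -0.54 in Hsp26, -0.60 in Hsp27 and -0.40 in DnaJ-1. Among H07 females, replicate 2 deviated in Hsp27 by 0.69 and replicate 3 by -0.65. Replicate 2 of P22 and replicate 3 of H07 had the lowest correlations of the 120 arrays with the mean of the 3 others of their group, at 0.9903 and 0.9930. Markers of other tissues also stood apart in them. Against the 3 other arrays of the line, P22 replicate 2 was higher by 0.82 in flight muscle, 0.68 in gut, 0.65 in eye and 0.60 in fat body genes and its difference in the ovary and egg genes was -0.36, and H07 replicate 3 was higher by 1.03, 0.65, 0.49 and 0.49 in the same 4 lists, with -0.15 in the ovary and egg genes. The part of these tissues in the deviations of the members was not tested. Without lines P22 and H07, over 52 female arrays, r was 0.64 for Hsp26 and Hsp27, 0.57 for Hsp26 and DnaJ-1 and 0.31 for Hsp27 and DnaJ-1.

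These deviations moved with markers of several tissues, upwards with those of the ovary and downwards with those of others. Over the 60 female arrays the mean of the 8 ovary and egg genes, again as deviation from the line mean, correlated with DnaJ-1 at r = 0.83 (rho = 0.75, each with adjusted permutation p = 0.00024 over 24 relations), with Hsp26 at r = 0.72 (adjusted p = 0.00054, rho = 0.59 with adjusted p = 0.0009) and with Hsp27 at r = 0.62 (adjusted p = 0.000624, rho = 0.54 with adjusted p = 0.00139). Without the 2 arrays farthest from the median these r were 0.75 for DnaJ-1, 0.62 for Hsp26 and 0.50 for Hsp27, and without lines P22 and H07 they were 0.73, 0.58 and 0.55. With the means of the replicate numbers also taken off, they were 0.83, 0.76 and 0.68. By single markers, 7 of the 8 genes correlated positively with DnaJ-1 and with Hsp26, the exception being orb, and 6 of the 8 with Hsp27, the exceptions being osk and orb. In male arrays, where the 8 genes averaged 5.03 at the median array, the r were 0.01 for DnaJ-1, 0.04 for Hsp26 and 0.23 for Hsp27, with adjusted permutation p of at least 0.305. Hsc70-4 was the exception among the males, with r = -0.40 (adjusted permutation p = 0.00891, rho = -0.45 with adjusted p = 0.00713) and -0.40 without the 2 farthest arrays.

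Lists of other tissues ran the other way. Over the same 60 female arrays, as a description with no test, r with the 2 eye genes was -0.71 for Hsp26, -0.74 for Hsp27 and -0.54 for DnaJ-1, r with the 3 gut genes was -0.67, -0.50 and -0.44, r with the 5 fat body genes was -0.50, -0.40 and -0.52, r with the 4 flight muscle genes was -0.58, -0.56 and -0.26, and r with the 4 nervous system genes was -0.70, -0.48 and -0.38. The ovary and egg genes themselves had r of -0.29 to -0.61 with these 5 lists. Without lines P22 and H07 every one of these r between member and list stayed below 0 except that of DnaJ-1 with flight muscle, at 0.01.

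Many genes did the same in females. Of the other probe sets, 1.15% had a higher r with the ovary and egg genes than DnaJ-1, 6.88% a higher one than Hsp26 and 12.2% a higher one than Hsp27. The median of the female array moved the other way, with r over 60 arrays of -0.85 for the ovary and egg genes, -0.81 for Hsp26, -0.78 for DnaJ-1 and -0.76 for Hsp27. With a straight line on the ovary and egg genes taken off, r within female lines was 0.63 for Hsp26 and Hsp27, 0.31 for Hsp26 and DnaJ-1 and -0.01 for Hsp27 and DnaJ-1, and with a line on the array median taken off it was 0.45, 0.24 and -0.21. The Hsp70 members did not share the pattern in females. Hsp68 had r = -0.25 with the ovary and egg genes (adjusted permutation p = 0.169, rho = -0.23), Hsc70-4 had r = -0.02 (adjusted p = 0.943, rho = 0.04), and Hsc70-3 went the other way, with r = -0.43 (adjusted p = 0.022) but rho = -0.31 (adjusted p = 0.119) and -0.35 without the 2 farthest arrays.

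**Figure D5:**
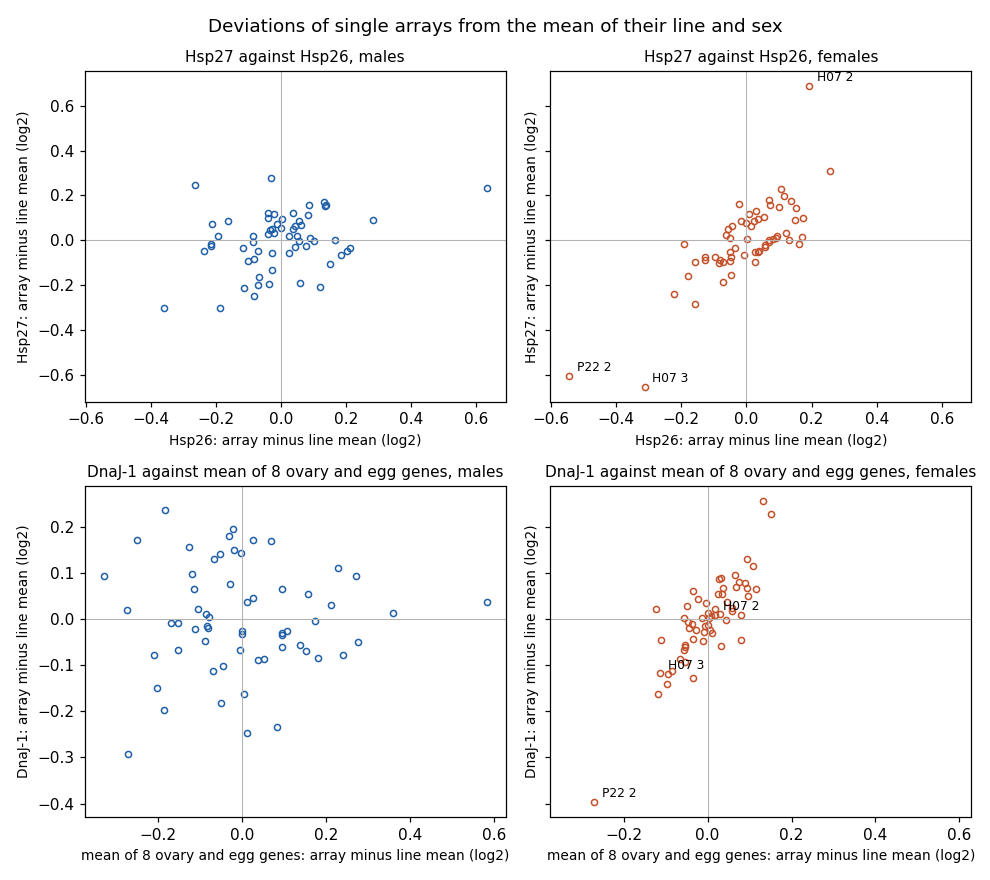
Deviations of single arrays from the mean of the 4 arrays of their line and sex (log2, both axes), for Hsp27 against Hsp26 above and DnaJ-1 against the mean of 8 ovary and egg genes below, with the 60 male arrays on the left and the 60 female arrays on the right. Labelled points are replicate 2 of P22 and replicates 2 and 3 of H07. The female points follow a slope, with r = 0.79 above and 0.83 below, while in males r is 0.31 above and 0.01 below.

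Over line means rather than arrays, Hsp26 of females also went with the ovary and egg genes (r = 0.79, permutation p = 0.00091, adjusted p = 0.02, rho = 0.56 with adjusted p = 0.327, and 0.65 without the 2 farthest lines), whereas Hsp27 did not (r = 0.03, adjusted permutation p = 0.94, rho = 0.24). H12 and P18 were the lowest female lines for Hsp26, at 13.32 and 13.38, against 13.50 to 13.70 in the other lines.

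As a description, with no test, the 3 genes whose line means were most like those of each member were found over the 30 means of line and sex, each sex centred on its own mean. They were picked as the highest among 13,646 probe sets annotated to 1 gene, so that their r are high by choice. Only Hsp27 and Hsp68 were called for line, and the line means of the other members need not reflect more than the spread of replicates. The closest to Hsc70-3 were Ugalt (r = 0.83), Sec22 (0.82) and P58IPK (0.79), which encode a UDP-galactose transporter of the Golgi, a SNARE of the traffic between endoplasmic reticulum and Golgi and a J protein of the endoplasmic reticulum. Their likeness lay in males, where r over 15 lines was 0.91, 0.90 and 0.93, against 0.30, 0.37 and -0.01 in females. The closest to Hsp27 were the chaperonin subunit CCT2 (r = 0.73), CG1637 (0.67) and the chromatin remodelling ATPase Iswi (0.66), and CCT2 too followed Hsp27 in males (0.89) more than in females (0.38). For Hsp26 they were the centriole gene Sas-6 (0.80), insv (0.78) and PGS1 (0.77), for Hsc70-4 Sesn (0.73), obe (0.71) and the translation release factor eRF3 (0.71), for Hsp68 Ucp4B (0.65), CG3515 (0.65) and CG12661 (0.65), and for DnaJ-1 casp (0.63), Vps24 (0.63) and TBC1d7 (0.62).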

How the data were processed

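The values used are the authors' deposited log2 values, made from 120 Affymetrix Drosophila Genome 2.0 arrays with RMA of the affy package (versions not given in the sources used here), a method that corrects background, normalizes quantiles of probes and summarises each probe set. Whether both sexes were normalized together is not given in the sources used here. Of 18,952 probe sets, 183 controls were left out. The number of arrays limits the precision, no detection calls were at hand, and levels under 5 were taken as dim.

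Sex (fixed), line and sex by line (random) were fitted by restricted maximum likelihood in closed form, as was line within each sex. Variance terms were tested against an equal mixture of chi-square distributions with 0 and 1 degrees of freedom. The study's batch term was left out because the batch of each array is not given in the sources used here. The closed form was checked against lme4 1.1.37 on 40 probe sets, and was tested on simulated data. R 4.3.3 ran limma 3.58.1 for the moderated tests. All else was computed in Python 3.11.15 (numpy 2.4.6, scipy 1.17.1, pandas 2.3.3, and for plots matplotlib 3.10.9). Alternatives were centring on the array median or on ribosomal proteins, leaving out dim probe sets, limma, a false discovery rate of 0.05, the replicate number as a block, and leaving out each replicate number or line. Correlations were tested two-sided with 100,000 permutations.

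Genes were named by Entrez ID from the array's annotation. Where a gene of the other lists or a marker had several probe sets of its own, the probe set with the highest mean over all arrays was used. This applied to l(2)efl, Hsc70-1 and jdp, with 3 probe sets each, and values of their other probe sets are not given here. The members and lists were chosen with earlier results of these data known. Named from each other list were up to 4 genes with the largest sex difference among those called with the same direction in every line, and up to 2 called genes with the largest variance among lines, and for each member the 3 genes with the most similar line means. Fdx1, mRRF1, Cpr67B, CG4022, Cpsf5, orb, osk, DnaJ-H, Hsp60A and Pdi were named after their values were seen. No sequences were used.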

Additional observations from a re-analysis of the deposited data

Results flagged for a closer look

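In the 180 groups of 4 arrays (6 genes, 15 lines, 2 sexes), 9 held an array that stood apart from the other 3 by more than Dixon's 95% limit, and chance flags about 1 in 20 such groups. Hsp27 had 3, each the low replicate 4 of a male line. That array was at 9.98 in H10 against 10.07 for the lowest other, at 9.71 in H12 against 9.97, and at 9.83 in P15 against 10.15. Hsp26 had 1, the high replicate 4 of H07 males at 10.50, and Hsp68 had 1, the high replicate 1 of P07 females at 7.02 against at most 6.57 in the others. Hsc70-4 had 2 high arrays, replicate 4 of P56 males at 13.44 and replicate 4 of P48 females at 14.01. DnaJ-1 had 2 low arrays, replicate 2 of H07 males at 10.89 and replicate 4 of P15 females at 11.54. Hsc70-3 had 0. Of the 9 arrays 7 carry replicate number 4, and the study's batches could not be set against these numbers.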

How the results depend on the processing

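The 6 sex calls held under every alternative but 1, since DnaJ-1 was not called with centring on ribosomal proteins, the only setting that turned a direction. There the differences were 0.51 for Hsc70-3, 0.19 for Hsc70-4 and 0.0815 for DnaJ-1, and 3 members were called higher in males and 2 in females. In that setting 1 member (Hsp27) was called for sex by line, against 19.6% of all probe sets, and 0 for line in females, against 7.84%. At a false discovery rate of 0.05, 3 members were called for sex by line, against 25.4% of all probe sets. With limma, 2 were called for line over both sexes, where its test sets lines against the spread of arrays and not against sex by line, and calls over all probe sets were 5,137 instead of 53. With a replicate or a line left out, 1 to 2 members were called for line in males and 0 to 1 for line in females. Of all probe sets, 12.9% to 17% were called in males and 3.51% to 4.82% in females with a replicate left out. With a line left out these shares were 22.5% to 26.5% and 7.11% to 8.92%, against 27.3% and 8.36% with all arrays. With a line left out, 0 to 1 members were called for sex by line (Hsp27, without H07, against 7.88% of all probe sets). Male and female arrays share replicate numbers. Of same-numbered pairs of a line, 19 of 60 had deviations correlated over 0.1, with a median r of 0.05. Of pairs of a line with other numbers, 10 of 180 did, with a median r of -0.02. For 34 of 60 male arrays the best female array of the line had the same number. Same-numbered arrays were thus more alike, but their r was at most 0.22, and the numbers were not taken as pairs. With the replicate block, 6 members were called for sex, 2 for line in males and 1 in females, as without it. Of all probe sets, 91.4%, 32.8% and 9.43% were called in these tests. The share of male DnaJ-1 among lines was 28.7% instead of 0%, and probe sets called for sex by line were 2,232 instead of 1,852. Those calls numbered 3,686 with ribosomal centring, 4,762 at a false discovery rate of 0.05 and 860 to 1,018 with a replicate left out. No member has a further probe set of its own to try.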

Other observations

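Of the 59 measured chaperone genes outside the members, 21 were called for line in males, against 27.3% of all probe sets, and 6 in females, against 8.36%. CG5504, which encodes a mitochondrial J protein, was the only 1 of the 59 other chaperone genes called for line over both sexes (69.8% of variance, adjusted p = 0.000196). Its line means spanned 8.93 to 9.50 among males and 9.04 to 9.60 among females. Sex by line was called for 3 of the 59, against 9.87% of all probe sets. The variance of wus among lines was 71.6% in males (adjusted p = 5.82e-09) and 0.453% in females (adjusted p = 0.702), with a sex by line term of adjusted p = 1.91e-05, and its line means spanned 5.40 to 6.31 among males and 9.03 to 9.30 among females. Hsp60D spanned 8.51 to 9.69 among males and was dim in all female lines (adjusted p of sex by line 4.53e-07), and DnaJ-H spanned 10.32 to 10.69 among males and 9.22 to 9.64 among females (adjusted p of sex by line 0.000722). The prefoldin gene Pfdn4 was called for line in each sex, with 67.6% of its variance in males (adjusted p = 6.31e-08) and 57.8% in females (adjusted p = 1.86e-05, restricted likelihood ratio tests).

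Within female lines the mean of the yolk genes Yp1, Yp2 and Yp3 moved against the same 3 members that moved with the ovary and egg genes, with r over 60 arrays of -0.70 for DnaJ-1, -0.69 for Hsp26 and -0.59 for Hsp27 (adjusted permutation p of 0.00054, 0.00036 and 0.00072, rho of -0.56, -0.57 and -0.47). Without the 2 farthest arrays these r were -0.59, -0.58 and -0.50, and the female array median had r = 0.71 with the yolk genes. The yolk genes themselves had r with the ovary and egg genes of -0.73 within female lines and 0.69 within male lines. Relations of a member with these lists are therefore not independent of each other. In males it was Hsc70-4 that moved against the yolk genes, which averaged 6.42 at the median male array (r = -0.47, adjusted permutation p = 0.00597, rho = -0.44 with adjusted p = 0.00957), with r of -0.42 without the 2 farthest arrays, -0.41 with the means of the replicate numbers taken off and a lower r for 0.133% of the other probe sets.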
